A study of Mus musculus with 250 samples.

Results

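Cells with transcripts of the proliferation genes Mki67 or Top2a were compared with cells without them, among 250 single epidermal cells of the Lrig1 lineage sorted from mouse tail skin. Mki67 encodes the nuclear antigen Ki-67, found in proliferating cells, and Top2a encodes the topoisomerase that untangles DNA before division. A cell was counted as cycling when Mki67 or Top2a reached at least 10 CPM, the count scaled to the total of that cell. A cell was counted as non-cycling when it had 0 reads of both genes. By this rule 58 of the 250 cells were cycling, 188 were non-cycling and 4 lay between and were left out of the comparison of genes.

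The tail skin of Lrig1CreER/Rosa-TdTomato mice supplied every cell. The Lrig1 gene, active in stem cells of the upper hair follicle, drives the inducible Cre, and the red reporter stays on in the progeny of the labelled cells. Cells that also carried Sca1 (Ly6a) on their surface were sorted to enrich for the upper follicle and were sequenced by Smart-Seq2, a full-length method without molecular identifiers. The labels give all cells a time of 8 weeks with a further abbreviation that is not spelled out there, and name neither the age, the sex nor the animal of a cell. The cells came from a distal memory region (81 cells), the wound bed (85 cells) and a control region without memory (84 cells), each in 2 batches. Each region and batch had a plate of its own, so region and plate cannot be told apart within a batch. No animal is named, which makes each region 1 sample, so no test was run and no p-value is given.

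The cell cycle passes from G1, in which a cell grows, through S phase, in which DNA is replicated, to G2 and mitosis (M phase). E2F factors switch on the genes of S phase. The DREAM complex, MYB and FOXM1 act on the genes of G2 and mitosis through a promoter element named CHR. In epidermis, division takes place mostly in the basal layer and in the follicle. Keratinocytes that leave the basal layer exit the cycle and switch from the keratins Krt5 and Krt14 to Krt1 and Krt10.

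The class rule needs few reads. Among the 58 cycling cells, 25 had reads of Mki67 only, 12 of Top2a only and 21 of both. In 14 cycling cells the class rested on 1 read, in 3 on 2 reads and in 41 on 3 or more. The larger of the 2 levels was 10.4 CPM in the lowest cycling cell, 276 CPM in the median cell and 6105 CPM in the highest. The 4 cells just outside the rule had 1.17, 2.94, 8.24 and 8.38 CPM, and the 4 cycling cells just inside it had 10.4, 11.6, 12.6 and 13.4 CPM. Cells on either side of the 10 CPM line thus differed by little. The classes were chosen by these values, which are given as a description.

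Depth differed between the classes in batch 1 and varied widely between cells. Over both batches, cycling cells had a median of 53900 reads (lowest 3857, highest 1977308) and non-cycling cells a median of 47732 reads (lowest 5974, highest 3119120). Cycling cells had a median of 2110.5 detected genes and non-cycling cells 1772.5. In batch 1 the medians were 117672 reads and 2881 genes in cycling cells, and 58802.5 reads and 1581.5 genes in non-cycling cells. In batch 2 they were 46720 reads and 2038 genes in cycling cells, and 46035.5 reads and 1804 genes in non-cycling cells. When every cell was thinned to 10000 reads, the medians were 1390 genes in cycling cells and 1182 in non-cycling cells (1440 and 996 in batch 1, 1376.5 and 1250.5 in batch 2). The median share of reads from mitochondrial transcripts was 31.6% in cycling cells and 27.5% in non-cycling cells. Predicted genes took over 5% of the non-mitochondrial reads in 7 of the 58 cycling cells and in 49 of the 188 non-cycling cells. The part of these differences in the results below was not tested beyond the alternatives named.

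The share of cycling cells was 23.2% of all cells, with an exact 95% interval of 18.1 to 28.9%. Intervals of shares cover counting error only, since cells of 1 plate can come from 1 animal and reads are not independent molecules. In batch 1 the share was 28.1% on the distal plate (9 of 32 cells, interval 13.7 to 46.7%), 13.3% on the wound bed plate (4 of 30 cells, 3.76 to 30.7%) and 7.14% on the control plate (2 of 28 cells, 0.877 to 23.5%). In batch 2 it was 22.4% on the distal plate (11 of 49 cells, 11.8 to 36.6%), 36.4% on the wound bed plate (20 of 55 cells, 23.8 to 50.4%) and 21.4% on the control plate (12 of 56 cells, 11.6 to 34.4%). By the class rule the control plate had the lowest share in each batch, and the distal and wound bed plates changed places between batches. With at least 2 marker reads required, the distal plate of batch 2 had a share of 16.3% (8 of 49 cells), below the control plate with 17.9% (10 of 56 cells). The intervals of the 3 plates of a batch overlapped, so no order of the regions was resolved at this number of cells.

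Over both batches the cycling class made up 24.7% of the distal, 28.2% of the wound bed and 16.7% of the control region. Batch 2 had a share of 26.9% (43 of 160 cells) and batch 1 a share of 16.7% (15 of 90 cells). Median reads per cell ranged over plates from 31686 (distal, batch 2) to 93690.5 (distal, batch 1), with 41206 on the wound bed plate of batch 2. In cells thinned to 10000 reads the share was 18.1% of 238 cells, with 20.8% of distal, 19.2% of wound bed and 14.5% of control cells. The wound bed plate of batch 2 moved most, to 24.5% of 49 thinned cells. Thinning left out 6 of its cells for too few reads. Of its 20 cycling cells, 15 had enough reads to be thinned, and 12 cells met the class rule afterwards. Among cells with at least 2000 detected genes, the control plate equalled the wound bed plate in batch 1 (22.2% each, of 9 cells each) and the distal plate in batch 2 (29.6% each, of 27 cells each).

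**Figure D1:**
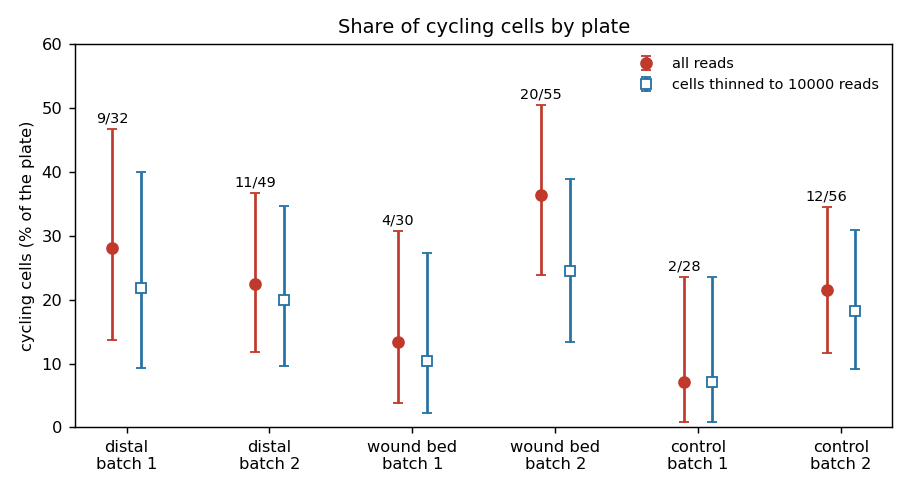
Share of cycling cells (percent of the cells of a plate) by region and batch, from all reads (filled circles) and in cells thinned to 10000 reads (open squares), with exact 95% intervals; the fractions give cycling cells over cells. The control plates sit lowest in both batches (7.14% and 21.4% with all reads), and the intervals of the plates of a batch overlap.

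Genes were compared by the log2 ratio of mean CPM plus 1, cycling over non-cycling, computed within each batch with plates weighted alike in both classes. Only the 6167 genes read, in each batch, in 10% or more of the cells of either class were considered. A gene met the size rule when the ratio was at least 1 in size, with the same sign in both batches. The rule was met by 499 genes as higher in cycling cells (8.09% of those considered) and by 381 as lower (6.18%). The balance depended on the processing: 476 genes were higher and 511 lower when summed reads were scaled by TMM, 735 and 801 when cells under 2000 detected genes were dropped, and 877 and 1209 without the detection filter. Another 440 genes passed that size in both batches in opposite directions, and the median over all considered genes was -0.03 in batch 1 and 0.03 in batch 2. In simulated data with classes of these sizes, unchanged genes met the rule as lower more often than as higher. Higher genes made up 42% of the calls without the detection filter, 56.7% with it and 66.5% with a 25% filter. The part of class size and filter in either number was not tested. Both numbers of genes, higher and lower, are therefore given as a background only.

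The genes that ranked highest in cycling cells were those of the mitotic machinery. The class rule rests on Mki67 and Top2a, and how far these markers set the order was not tested. The 12 at the top were Spc25, Sgo1, Knl1, Cenpf, Ccnb2, Nuf2, Ccnb1, Cdkn3, Mad2l1, Anln, Cdk1 and Tpx2. Spc25, Nuf2 and Knl1 belong to the kinetochore that ties chromosomes to the spindle, Sgo1 guards the cohesion of sister chromatids, and Mad2l1 holds the spindle checkpoint. Anln builds the contractile ring, Tpx2 the spindle, and Cdk1 with the cyclins Ccnb1 and Ccnb2 forms the kinase that drives entry into mitosis. Each of the 12 had a read in 34.5 to 50% of the cycling cells and in 0 to 4.79% of the non-cycling cells. All 12 had a positive ratio in each of the 5 plates with at least 3 cells of both classes.

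Cdk1 (ENSMUSG00000019942; GRCm38 chromosome 10, 69335146 to 69352938, minus strand) had a read in 23 of 58 cycling cells and in 1 of 188 non-cycling cells. The cycling cells with a Cdk1 read were 4 of 9 and 4 of 11 on the distal plates of batches 1 and 2, 3 of 4 and 5 of 20 on the wound bed plates, and 2 of 2 and 5 of 12 on the control plates. The non-cycling cell with Cdk1 reads was on the control plate of batch 1. Mean Cdk1 levels were 234 CPM in cycling cells and 0.18 CPM in non-cycling cells of batch 1, and 72.3 CPM in cycling cells and 0 CPM in non-cycling cells of batch 2. The log2 ratio was 7.64 in batch 1, and in batch 2 the summed reads were at least 334-fold higher in cycling cells, with 3 reads taken as the floor for the non-cycling class.

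Ccnb2 (ENSMUSG00000032218; GRCm38 chromosome 9, 70407692 to 70421547, minus strand) had a read in 22 of 58 cycling cells and in 0 of 188 non-cycling cells. A count of 0 of 188 cells is compatible with a share of up to 1.94%, the upper end of the exact interval. Cycling cells with Ccnb2 reads numbered 5 of 9 and 3 of 11 on the distal plates, 3 of 4 and 5 of 20 on the wound bed plates, and 2 of 2 and 4 of 12 on the control plates. Its summed reads were at least 981-fold higher in cycling cells in batch 1 and at least 654-fold higher in batch 2. These bounds set summed reads against the floor, so deep cells weigh more in them than in the means over cells.

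Cenpf, a kinetochore protein that accumulates late in the cycle, was read in 25 of 58 cycling cells and in 2 of 188 non-cycling cells. It averaged 982 CPM in cycling cells and 0 CPM in non-cycling cells of batch 1, and 687 CPM in cycling cells and 1.88 CPM in non-cycling cells of batch 2. Mad2l1 was read in 29 of 58 cycling cells and in 9 of 188 non-cycling cells. Its log2 ratio was 7.98 in batch 1 and 6.76 in batch 2. For each of the 12 genes, at least as many cycling cells lacked a read as had one.

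**Figure D2:**
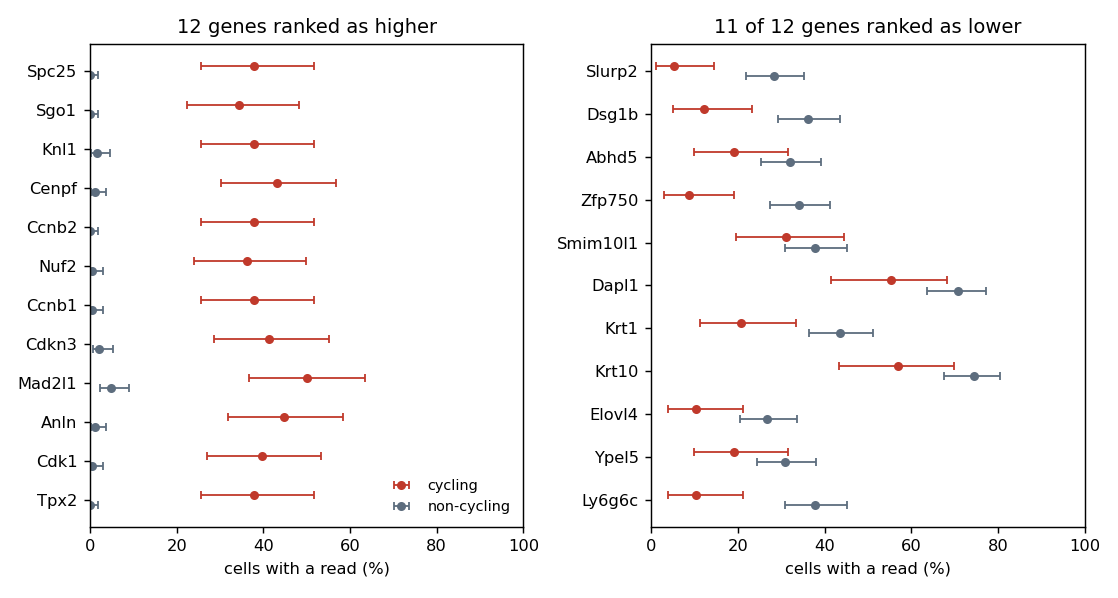
Share of cells with a read (percent, with exact 95% intervals) in cycling and non-cycling cells for the 12 genes ranked as higher (left) and 11 of the 12 ranked as lower (right) by the smaller of the batch ratios. Mitotic genes on the left lie between 34.5 and 50% in cycling cells and at or below 4.79% in non-cycling cells; genes on the right overlap more.

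CHR is the element named above for DREAM, MYB and FOXM1, and CCAAT is a further promoter element searched here. The promoters of Cdk1, Ccnb2 and Cenpf are shown as examples because they hold both elements. Not all of the ranked mitotic genes hold them: in the window from 250 bases before to 50 after the start, 8 of the 11 found in the RefSeq table had CHR letters and 7 had CCAAT, and Nuf2 and Mad2l1 had neither. RefSeq promoter sequences (GRCm38.p6) are given from 150 bases before to 30 bases after the start, 5′ to 3′ on the strand of the gene. Capitals mark CHR letters (TTTGAA or TTCGAA) and CCAAT, each read on either strand. The windows are chr10:69352883-69353062 for Cdk1, chr9:70421525-70421704 for Ccnb2 and chr1:189688057-189688236 for Cenpf, all on the minus strand.
Cdk1: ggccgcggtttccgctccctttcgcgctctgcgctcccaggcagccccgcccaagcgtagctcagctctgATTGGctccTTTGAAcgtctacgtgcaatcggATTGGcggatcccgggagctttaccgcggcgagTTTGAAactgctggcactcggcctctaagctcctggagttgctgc
Ccnb2: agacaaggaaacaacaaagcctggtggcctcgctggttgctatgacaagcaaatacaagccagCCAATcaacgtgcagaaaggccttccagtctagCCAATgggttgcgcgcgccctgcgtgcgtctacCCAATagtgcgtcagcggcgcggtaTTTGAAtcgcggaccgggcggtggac
Cenpf: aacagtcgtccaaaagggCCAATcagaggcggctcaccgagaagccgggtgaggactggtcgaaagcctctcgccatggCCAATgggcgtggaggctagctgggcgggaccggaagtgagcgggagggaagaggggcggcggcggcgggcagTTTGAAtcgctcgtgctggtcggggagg

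Within these windows the Cdk1 promoter held 2 CHR and 2 CCAAT matches, that of Ccnb2 1 CHR and 3 CCAAT matches, and that of Cenpf 1 CHR and 2 CCAAT matches. In the longer window of the RefSeq table, from 250 bases before to 50 after the start, CHR letters stood in 72% of the 50 promoters of the genes commonly used to score G2 and M phase, of which 45 of 51 genes matched the table. They stood in 17.6% of the 34 promoters of S phase genes (31 of 43 genes matched), in 17.6% of the 17 promoters of suprabasal genes (14 of 18 genes matched) and in 19.2% of all 32851 promoters. CCAAT letters stood in 74% of the G2 and M phase promoters, 67.6% of the S phase promoters, 35.3% of the suprabasal promoters and 37.4% of all promoters. CHR and CCAAT letters stood together in 58% of the G2 and M phase promoters, 11.8% of the S phase promoters, 5.88% of the suprabasal promoters and 7.52% of all promoters, and in 1 G2 and M phase promoter a match of each shared a base. E2F letters (the runs TTTCGCG and also TTTGGCG, with the variants TTTCCCG and also TTTGCCG, on either strand) stood in 22% of the G2 and M phase promoters, 41.2% of the S phase promoters, 5.88% of the suprabasal promoters and 6.7% of all promoters. A match says that the letters are present, and binding was not measured here.

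All 16 considered members of the mitotic kinases and checkpoint list (18 listed) met the size rule as higher in cycling cells. Of all considered genes, 8.09% did so, the share to set beside each cycle list that follows. Members of these lists can pass the detection filter through cycling cells alone, as taken up below. The median log2 ratio of this list was 6.37 in batch 1 and 4.95 in batch 2. Pbk, a mitotic kinase, had a read in 18 of 58 cycling cells and in 0 of 188 non-cycling cells. Bub1, a checkpoint kinase, had a read in 13 cycling cells and in 1 non-cycling cell, and Birc5 (survivin), a subunit of the chromosomal passenger complex, in 22 and 2. Of the spindle and kinesin list, 28 of 31 considered members (34 listed) met the rule as higher, with medians of 6.14 in batch 1 and 4.43 in batch 2. Cenpe, the kinesin that moves chromosomes to the spindle equator, was read in 15 cycling cells and in 0 non-cycling cells. Ckap5, Tuba1c and Tubb4b, the other 3 considered members, act on or form microtubules of all cells and did not meet it.

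Of the cyclin and kinase list, 10 of 14 considered members (20 listed) met the rule as higher, against 8.09% of all considered genes. The medians were 3.65 in batch 1 and 2.99 in batch 2. Ccna2, the cyclin of S and G2, was read in 20 of 58 cycling cells and in 2 of 188 non-cycling cells, with log2 ratios of 7.48 in batch 1 and 4.90 in batch 2. Cks2, a small partner of cell cycle kinases, was read in 36 cycling cells and in 33 non-cycling cells, with ratios of 5.64 and 3.09. The G1 cyclin Ccnd1 had ratios of -0.27 in batch 1 and -1.72 in batch 2, and Ccnd2 had ratios of -2.19 and 0.20, so neither met the rule. The G1 to S cyclins Ccne1 and Ccne2 were read in too few cells to be considered, in 3 and 4 cycling cells and in 2 and 3 non-cycling cells.

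Of the list for anaphase promotion and chromosome condensation, 11 of 15 considered members (18 listed) met the rule as higher, against 8.09% of all considered genes. The medians were 3.36 in batch 1 and 2.71 in batch 2. Cdc20, the activator of the anaphase-promoting complex, had a read in 19 of 58 cycling cells and in 2 of 188 non-cycling cells. The condensin subunit Ncapg had a read in 17 cycling cells and in 1 non-cycling cell. Pttg1 (securin) and Fzr1, which acts with the anaphase-promoting complex in G1, did not meet the rule, nor did the cohesin subunits Smc3 and Smc1a.

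Genes of DNA replication differed in the same direction with smaller ratios. A cell in S phase with 0 reads of Mki67 and Top2a counts as non-cycling. The sizes of the mitotic and replication ratios therefore depend on the class rule and do not rank the programs. Of the list for licensing and firing of replication origins, 12 of 14 considered members (19 listed) met the rule as higher, against 8.09% of all considered genes. The medians were 3.15 in batch 1 and 1.93 in batch 2. Dbf4, the activator of the origin-firing kinase Cdc7, had a read in 15 of 58 cycling cells and in 0 of 188 non-cycling cells. The helicase subunit Mcm7 had a read in 13 cycling cells and in 16 non-cycling cells, with log2 ratios of 3.22 and 2.58. Of the list for DNA synthesis and nucleotide supply, 16 of 25 considered members (31 listed) met the rule as higher, with medians of 2.43 and 1.76.

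Tyms, which makes thymidylate for DNA, averaged 178 CPM in cycling cells and 7.18 CPM in non-cycling cells of batch 1, and 182 CPM in cycling cells and 10.1 CPM in non-cycling cells of batch 2. It had a read in 6 of 9 and 6 of 11 cycling cells on the distal plates, 4 of 4 and 6 of 20 on the wound bed plates and 2 of 2 and 8 of 12 on the control plates. In non-cycling cells the same counts were 4 of 22 and 7 of 37 on the distal plates, 1 of 25 and 2 of 35 on the wound bed plates and 1 of 25 and 3 of 44 on the control plates. The share was higher in cycling cells on each plate. Rrm2, a subunit of the reductase that makes deoxynucleotides, had a read in 18 of 58 cycling cells and in 4 of 188 non-cycling cells, with log2 ratios of 3.73 and 5.45.

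Pcna, the sliding clamp of the replication fork, was common in both classes. It was read in 38 of 58 cycling cells and in 84 of 188 non-cycling cells. Its mean was 588 CPM in cycling cells and 100 CPM in non-cycling cells of batch 1 (log2 ratio 2.54), and 334 CPM in cycling cells and 124 CPM in non-cycling cells of batch 2 (log2 ratio 1.43). The mean was higher in cycling cells on each of the 5 plates with at least 3 cells of both classes.

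Of the histone and chromatin list, 13 of 16 considered members (17 listed) met the rule as higher, against 8.09% of all considered genes. The medians were 2.56 in batch 1 and 2.13 in batch 2. H2afz, which encodes the histone variant H2A.Z, averaged 3242 CPM in cycling cells and 192 CPM in non-cycling cells of batch 1, and 1654 CPM in cycling cells and 416 CPM in non-cycling cells of batch 2. Hmgb2, a chromatin protein of proliferating cells, was read in 39 cycling cells and in 75 non-cycling cells, with log2 ratios of 3.78 and 2.27. Asf1b, a histone chaperone of dividing cells, was read in 18 cycling cells and in 2 non-cycling cells. Hist1h1b, Hist1h2ae and Hist1h4d met the rule as well, but histone genes of a cluster are near-identical copies, and the counting may have split their reads.

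Transcriptional regulators of the cycle were read in few cells. Of 16 listed E2F, DREAM and FOXM1 regulators, 7 were considered and 3 met the rule as higher, against 8.09% of all considered genes. Foxm1, the activator of G2 and M phase genes, was read in 19 of 58 cycling cells and in 2 of 188 non-cycling cells, and averaged 38.2 CPM in cycling cells and 0.221 CPM in non-cycling cells of batch 1. In batch 2 it averaged 53.3 CPM in cycling cells and 0.459 CPM in non-cycling cells (log2 ratio 5.22). Rbl1 (p107), a pocket protein of the DREAM complex, had ratios of 2.42 and 2.20, and Mybl1 had ratios of 3.43 and 2.71. Mybl1 lost the rule under 5 of 22 alternatives, among them leaving out the wound bed plate of batch 1 or the control plate of batch 2. E2f1 was read in 1 cycling cell and in no non-cycling cell. The retinoblastoma gene Rb1 had ratios of -0.46 and 1.85 and did not meet the rule.

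A member read mainly in cycling cells passes the detection filter only through them, so the counts above do not stand for the whole lists. Without the filter, and by the share of cells with a read alone, all 51 genes of the G2 and M phase list and all 43 of the S phase list had a higher share in cycling cells in both batches. Of all 21506 genes with a read, many of them read in few cells, 23.9% did so. Among the considered genes alone, 74.7% had a higher share in cycling cells over both batches together (66.3% in thinned cells). With the filter, 42 of 47 considered G2 and M phase genes met the size rule as higher, and 24 of 33 considered S phase genes. The median log2 ratio was 5.64 in batch 1 and 3.90 in batch 2 for G2 and M phase, and 2.25 and 1.69 for S phase. With genes lacking reads in a class set at the floor of 3 counts, the G2 and M phase medians were 5.64 and 3.83.

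**Figure D3:**
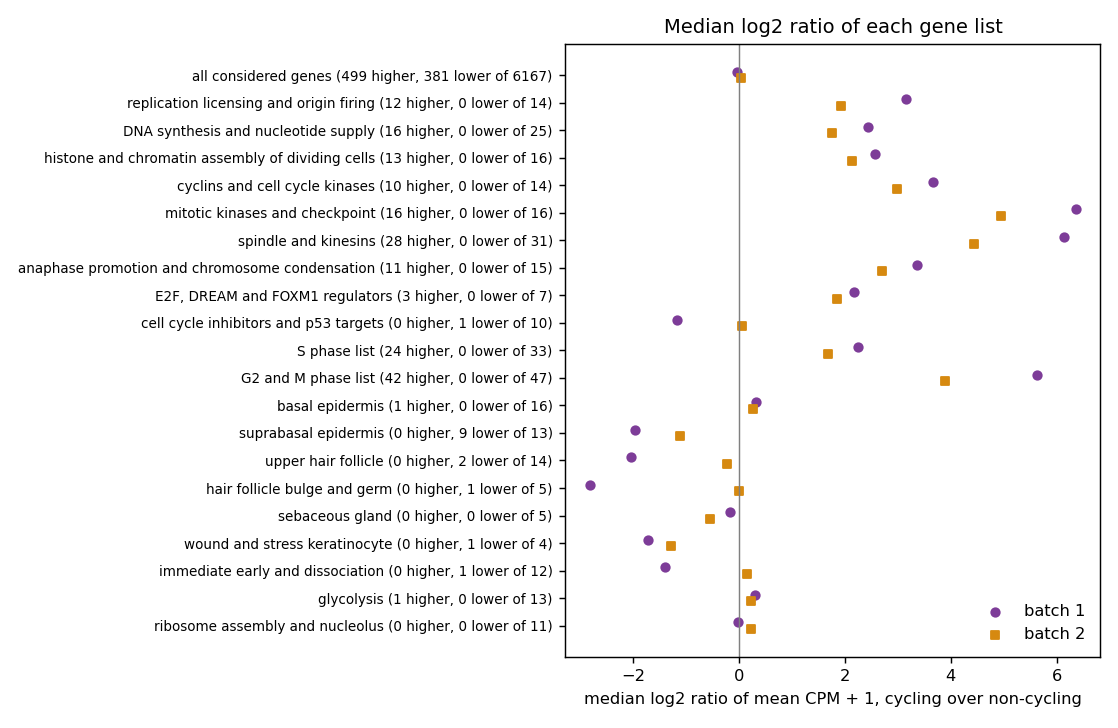
Median log2 ratio of mean CPM plus 1 (cycling over non-cycling) of the considered members of each gene list in batch 1 (circles) and batch 2 (squares), with the counts that met the size rule. The mitotic lists lie farthest to the right (6.37 and 4.95 for mitotic kinases and checkpoint), the suprabasal list lies to the left in both batches (-1.96 and -1.12), and the median of all considered genes is near 0.

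Per cell, the cycling class was mixed. A cycling cell had a read of 11.5 of the 51 G2 and M phase genes in the median (lowest 0, highest 49), and a non-cycling cell of 3.5 (lowest 0, highest 12). Thinned to 10000 reads, the medians were 8 in cycling cells and 2 in non-cycling cells. At least 10 of these genes were read in 31 of 58 cycling cells and in 3 of 188 non-cycling cells. For the S phase list the medians were 8.5 genes in cycling cells and 2 in non-cycling cells (4.5 and 2 thinned), and at least 10 genes were read in 25 of 58 cycling cells and in 10 of 188 non-cycling cells.

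With 10 genes of a list as a line, chosen after the values were seen, 19 cycling cells passed it for both lists, 12 for G2 and M phase only, 6 for S phase only and 21 for neither. Among non-cycling cells, 1 passed it for both lists, 2 for G2 and M phase only, 9 for S phase only and 176 for neither. The 14 cycling cells with 1 marker read had a median of 4.5 G2 and M phase genes (0 to 17), and the 44 with 2 or more reads had a median of 17.5 (1 to 49). The median of the cells with 1 read lay near that of non-cycling cells.

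The spread within the class was also seen between plates. Cycling cells had a median of 21 G2 and M phase genes on the distal plate of batch 1 and 8 on that of batch 2. The medians were 42.5 and 6.5 on the wound bed plates of batches 1 and 2, and 36 and 10.5 on the control plates. Batch 1 was thus higher than batch 2 in each region, on plates with 9, 4 and 2 cycling cells. Thinned to 10000 reads the medians were 12 and 6 on the distal plates, 34 and 4 on the wound bed plates and 23.5 and 7 on the control plates. The wound bed plate of batch 2, which had the most cycling cells (20), had the fewest G2 and M phase genes per cycling cell, and 10 of its 20 cycling cells were below 10 genes for both lists.

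**Figure D4:**
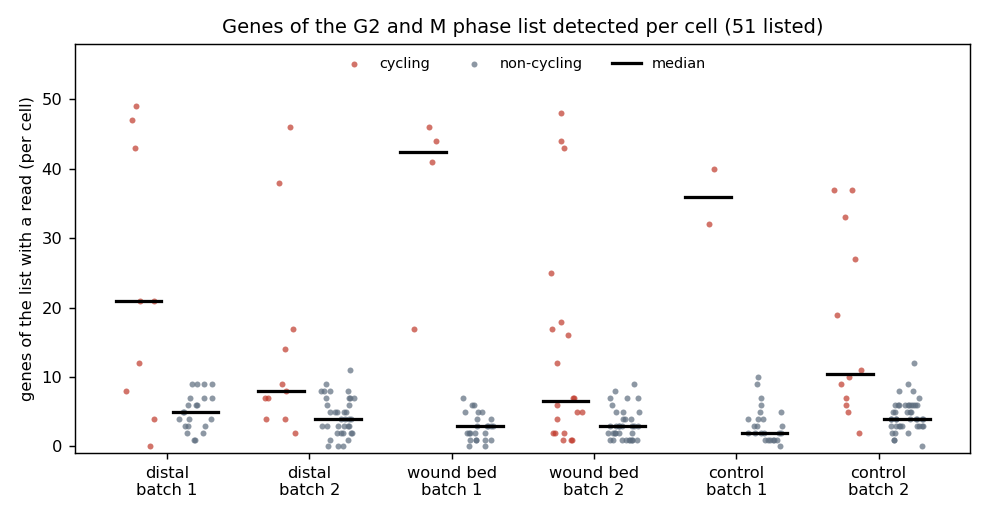
Number of the 51 G2 and M phase genes with a read in each cell, by plate, for cycling and non-cycling cells with medians as bars. Cycling cells reach 49 genes and non-cycling cells at most 12, and many cycling cells of the wound bed plate of batch 2 (median 6.5) lie within the range of non-cycling cells.

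Genes of keratinocyte differentiation were lower in cycling cells. Of the suprabasal list, 9 of 13 considered members (18 listed) met the size rule as lower and 0 as higher. Among all considered genes, 6.18% met it as lower and 8.09% as higher. The median log2 ratio of the list was -1.96 in batch 1 and -1.12 in batch 2. By the share of cells with a read and without the filter, 11 of the 18 were lower and 0 were higher in cycling cells in both batches, against 12.4% lower among all genes with a read. This ran against the general direction, since 74.7% of considered genes had a higher share in cycling cells (66.3% in thinned cells). Without the cells rich in predicted genes, 7 of 13 met the rule as lower, and with a pseudocount of 10 in place of 1, 6 did. The median over both batches, -1.84, was -2.97 without the wound bed plate of batch 1, -2.66 in thinned cells and -1.29 with a pseudocount of 10. The list was already known from earlier results to differ among these cells, so its direction is no independent evidence.

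Krt10 (ENSMUSG00000019761; GRCm38 chromosome 11, 99385254 to 99389364, minus strand), the keratin of the spinous layer, was read in 33 of 58 cycling cells and in 140 of 188 non-cycling cells. Mean Krt10 in cycling cells was 29.8 and 1361 CPM on the distal plates of batches 1 and 2, 458 and 5817 CPM on the wound bed plates, and 150 and 2653 CPM on the control plates. In non-cycling cells it was 13198 and 5494 CPM on the distal plates, 17003 and 22598 CPM on the wound bed plates, and 5366 and 8242 CPM on the control plates. The mean was lower in cycling cells on all 6 plates. The log2 ratio was -6.35 in batch 1 and -1.91 in batch 2.

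Krt1, the partner of Krt10, was read in 12 of 58 cycling cells and in 82 of 188 non-cycling cells, with log2 ratios of -4.30 and -2.35. Dsg1a, a desmosomal cadherin of the upper layers, was read in 16 cycling cells and in 120 non-cycling cells, with ratios of -6.37 and -1.12. Krtdap, a secreted protein of differentiating keratinocytes, was read in most cells of both classes (52 of 58 cycling cells and 175 of 188 non-cycling cells), with ratios of -1.29 in each batch. Dmkn and Lgals7 had ratios of -1.11 and -1.21 in batch 1 and of -0.56 and -0.68 in batch 2 and did not meet the rule. The genes of the cornified layer were rare in both classes: Lor was read in 2 cycling cells and in 6 non-cycling cells, and Ivl in 3 and 13.

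The genes that ranked lowest in cycling cells included Krt1, Krt10 and several others of the barrier. Among the 12 were Slurp2, Dsg1b, Abhd5, Zfp750, Smim10l1, Dapl1, Krt1, Krt10, Elovl4, Ypel5 and Ly6g6c. Zfp750, a transcription factor of terminal epidermal differentiation, was read in 5 of 58 cycling cells and in 64 of 188 non-cycling cells. Its reads in cycling cells came from 3 of 20 cells of the wound bed plate of batch 2 and 2 of 12 cells of the control plate of batch 2. No cycling cell of the other 4 plates had a read, while 5 to 16 non-cycling cells of each had one. Abhd5 and Elovl4 serve the lipid barrier of the skin, the first as co-activator of a lipase and the other as elongase of very long fatty acids. Abhd5 had log2 ratios of -3.61 and -3.10, and Elovl4 was read in 6 cycling cells and in 50 non-cycling cells. Grhl3, a further transcription factor of the barrier, was read in 2 cycling cells and in 27 non-cycling cells, but lost the rule under 4 of 22 alternatives.

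Summed over the 18 suprabasal genes, cycling cells had a median of 6093 CPM (lowest 0, highest 95371) and non-cycling cells a median of 14879 CPM (lowest 26.5, highest 163667). The ranges overlapped almost wholly. The median in cycling cells was below that in non-cycling cells on each plate, with 3090 against 21093 CPM and 5449 against 15765 CPM on the distal plates of batches 1 and 2. On the wound bed plates it was 14396 against 38013 CPM and 8038 against 41232 CPM. On the control plates it was 4699 against 5757 CPM and 6614 against 11154 CPM, the smallest gaps.

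**Figure D5:**
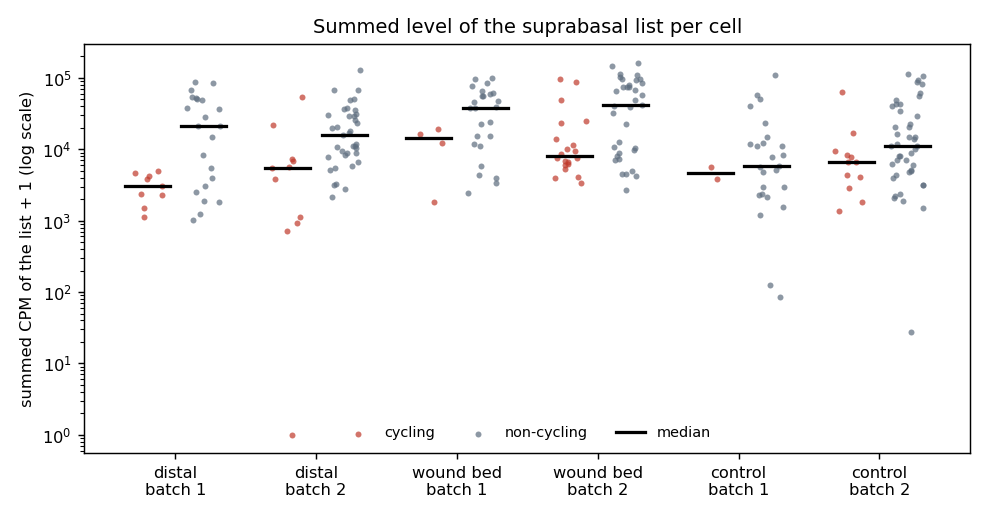
Summed level of the 18 suprabasal genes in each cell (CPM plus 1, log scale) by plate, for cycling and non-cycling cells with medians as bars. The bar of cycling cells lies below that of non-cycling cells on all 6 plates, and single cells of both classes span most of the range.

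Most basal genes were read in a larger share of cycling cells, as were most considered genes. They met the size rule about as rarely as all considered genes (8.09% higher and 6.18% lower). Of 16 considered members of the basal list, 1 (Cdh3) met it as higher and 0 as lower, and the medians were 0.31 and 0.26. Cdh3 lost the rule under 9 of 22 alternatives, among them leaving out the distal plate of batch 1 or the wound bed plate of batch 2. By the share of cells with a read, 13 of the 16 were higher and 2 lower in cycling cells in both batches, against 23.9% higher and 12.4% lower among all genes with a read. Among the considered genes alone, 74.7% had a higher share in cycling cells over both batches together (66.3% in thinned cells). Krt5, a keratin of the basal layer, was read in 54 of 58 cycling cells and in 117 of 188 non-cycling cells, with log2 ratios of 0.72 and 0.64. Krt14 was read in 56 cycling cells and in 154 non-cycling cells, with ratios of 0.30 and 0.44. Trp63, the regulator of epidermal progenitors, averaged 276 CPM in cycling cells and 269 CPM in non-cycling cells of batch 1 and 357 CPM in cycling cells and 333 CPM in non-cycling cells of batch 2. A cycling cell had a read of 9 of the 16 basal genes in the median and a non-cycling cell of 7 (8 and 6 thinned).

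The genes that define the sort and the lineage were found in both classes. Ly6a (Sca1) was read in 37 of 58 cycling cells and in 93 of 188 non-cycling cells, with log2 ratios of 0.79 and -0.05. Lrig1 itself was read in 9 cycling cells and in 23 non-cycling cells, with ratios of -0.54 and 1.10. Gata6, a regulator of the upper follicle duct, was read in 6 cycling cells and in 30 non-cycling cells. None of these 3 met the size rule. A gene read in few cells does not show how many cells express it, and the reporter was not analysed here.

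Over the list, upper follicle genes had lower ratios in batch 1 than in batch 2, but the plates of batch 2 differed among themselves. These differences were not tested. Of 14 considered members (15 listed), 2 met the rule as lower (6.18% of all considered genes did), with medians of -2.04 in batch 1 and -0.24 in batch 2. By the share of cells with a read and without the filter, 8 of the 15 were lower and 4 higher in cycling cells in both batches, against 12.4% lower and 23.9% higher among all genes with a read. Krt79, a keratin of the upper follicle, was read in 10 of 58 cycling cells and in 54 of 188 non-cycling cells. In batch 1 it had 3 reads in all cycling cells. As a share of the summed reads, in which deep cells weigh more, this was 1411-fold lower than in non-cycling cells (counting interval 483 to 6845). In batch 2 the log2 ratio of mean CPM plus 1, a different measure, was -0.83. The defensin Defb6 likewise had ratios of -8.40 and -0.31. Within batch 2, Krt79 had plate ratios of -8.22 (distal), 0.45 (wound bed) and -0.67 (control), and Defb6 of -8.29, 0.73 and -1.65. Summed over the list, the highest cycling cell had 297297 CPM on the wound bed plate and 226997 CPM on the control plate of batch 2. The medians of the cycling cells there were 859 and 2183 CPM. Krt17 and Cd200, which met the rule, lost it under 6 and 11 of 22 alternatives. The bulge keratin Krt24 was read in 1 cycling cell and in 29 non-cycling cells, and the bulge gene Cd34 in 1 and 3.

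Among brakes of the cycle, Cdkn1a (p21), the p53 target that inhibits cell cycle kinases, met the rule as lower. It was read in 11 of 58 cycling cells and in 80 of 188 non-cycling cells. Cycling cells with a Cdkn1a read were 2 of 9 and 3 of 11 on the distal plates of batches 1 and 2, 1 of 4 and 3 of 20 on the wound bed plates, and 0 of 2 and 2 of 12 on the control plates. In non-cycling cells they were 11 of 22 and 20 of 37 on the distal plates, 7 of 25 and 14 of 35 on the wound bed plates, and 9 of 25 and 19 of 44 on the control plates. The share was lower in cycling cells on all 6 plates. The log2 ratio was -2.16 in batch 1 and -1.20 in batch 2, and Cdkn1a lost the rule without the wound bed plate of batch 2.

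The other 9 considered members of the inhibitor and p53 list (17 listed) did not meet the rule. Of all considered genes, 6.18% met it as lower. Cdkn1b (p27) was read in 19 cycling cells and in 39 non-cycling cells, with ratios of 0.08 and 0.80. Btg1, an antiproliferative gene, had ratios of -2.43 and -0.82. Trp53 itself had ratios of -0.19 and 0.61, and its negative regulator Mdm2 had ratios of -2.85 and 0.40.

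Genes of growth met the size rule about as rarely as all considered genes (8.09% higher and 6.18% lower). Of 11 considered genes of ribosome assembly (14 listed), 0 met the rule, with medians of -0.02 and 0.23. Ncl (nucleolin) had log2 ratios of 0.58 and 0.63 and was higher in cycling cells on each of 5 plates. Of 13 considered glycolysis genes (14 listed), 1 (Pfkl) met it as higher, and lost it under 8 of 22 alternatives. Myc met the rule as lower (9 of 58 cycling cells and 37 of 188 non-cycling cells with a read) and lost it under 13 of 22 alternatives. The wound-associated cystatin Stfa1 met it as lower, with ratios of -4.90 and -3.03, and was read in 15 cycling cells and in 62 non-cycling cells. The wound keratin Krt6a had ratios of 0.46 and -1.35.

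Markers of other cell types were at or near 0 in both classes. No member of the immune, fibroblast, endothelial or melanocyte lists reached the detection filter. A read of any immune marker was found in 2 of 58 cycling cells and in 7 of 188 non-cycling cells, and the summed immune level ranged from 0 to 5845 CPM in cycling cells and from 0 to 910 CPM in non-cycling cells. For fibroblast markers these numbers were 3 and 12 cells (up to 1970 and 682 CPM), for endothelial markers 3 and 6 cells (up to 579 and 273 CPM), and for melanocyte markers 1 and 3 cells (up to 16 and 69.8 CPM). The pan-leukocyte gene Ptprc was read in 1 cycling cell and in 1 non-cycling cell. A cycling cell of the distal plate of batch 2, with 15227 reads, had 3 immune markers, 3 basal genes and 0 suprabasal genes. The same cell held the highest immune and fibroblast levels of the cycling class (5845 and 1970 CPM), and its class rested on 1 marker read. Without it, 490 genes met the rule as higher and 385 as lower, and 7 of 13 suprabasal genes met it as lower.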

How the data were processed

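The authors deposited whole-number read counts per gene symbol (27003) for 250 cells; per the submitters' processing notes, Salmon 0.13.1, R 4.0.3 and Seurat were used with the build mm10 (GRCm38), in roles not stated. How estimates became whole counts is not given in the sources used here. All 250 columns matched a label, and no cell was left out beyond the class rule. No doublets were called and no free RNA was subtracted. Coordinates came from GENCODE M21 (26417 symbols matched), promoters from RefSeq GRCm38.p6.

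CPM was computed per cell from all its counts (Python 3.11.15), so cells of a class weighed alike within a plate. Plates were weighted by their number of cycling cells in both classes. Class means gave a log2 ratio (pseudocount 1) per batch. Plate ratios needed 3 cells of both classes, which 5 of 6 plates had. Intervals are exact (Clopper-Pearson, 95%), the floor is 3 counts, and both cover counting error only. Thinning drew 10000 reads per cell and left out 12 shallower cells. Summed reads scaled by TMM (edgeR 4.0.16, R 4.3.3) were an alternative. The script was tested on simulated data, where unchanged genes met the rule as lower more often than as higher with classes of these sizes, and about equally often with classes of equal size.

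The named genes were up to 12 higher and 12 lower genes that met the size rule, read in 25% or more of the higher class's cells in each batch and a share of cells differing the same way, ranked by the smaller batch ratio. One gene ranked as lower is not reported here. Mki67, Top2a, predicted genes, pseudogenes, ribosomal protein genes and mitochondrial transcripts were left out. Up to 6 members of each of the 24 gene lists were eligible as well, and Lrig1, Ly6a and Gata6 always; other list members given as examples were chosen after their values were seen, as were the motifs and promoter windows. The members and lists were chosen with earlier results of these data known. Of 382 list genes, 11 were not analysed here.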

Additional observations from a re-analysis of the deposited data

Results flagged for a closer look

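Hspa1b, a heat shock gene that tissue dissociation can induce, was lower in cycling cells on the distal plates but not on the wound bed plates. Its log2 ratio of cycling over non-cycling cells was -2.17 and -0.68 on the distal plates of batches 1 and 2, and 0.11 and 1.10 on the wound bed plates. It was -1.43 on the control plate of batch 2. The wound bed value of batch 1 lay near 0, on a plate with 4 cycling cells, and the difference was not tested. Fos, of the same list of immediate early and dissociation genes, had -1.10 and 2.59 on the distal plates and -3.26 and 0.29 on the wound bed plates, so it did not split by region. Of the 12 considered members of that list, 0 met the size rule as higher and 1 (Myc) as lower. Among all considered genes these shares were 8.09% and 6.18%.

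The 4 cells between the classes, which entered no comparison of genes, had reads of 2, 4, 7 and 15 genes of the G2 and M phase list. The highest, 15 genes, exceeds the 12 of the highest non-cycling cell, but was reached in a cell with 1703213 reads, against a median of 47732 reads in non-cycling cells, and the number of genes read depends on depth.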

How the results depend on the processing

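The labels number no replicates, so no test was run, paired or unpaired. Both classes share each plate, and ratios within plates are given instead. The medians of the G2 and M phase, S phase and suprabasal lists kept their sign under all 22 alternatives. The balance of 499 higher to 381 lower genes turned under 3 of them: scaling by TMM (476 and 511), cells with at least 2000 genes (735 and 801) and no detection filter (877 and 1209). The G2 and M phase median (4.72 over both batches) was at least 3.90 under every alternative except a pseudocount of 10, which gave 2.67. Without 1 plate at a time, the values ran from 4.45 to 4.93 for that median, from 2.11 to 2.43 for the S phase median, from 471 to 536 for higher genes, from 403 to 530 for lower genes and from 19.49 to 25.23% for the cycling share. The cycling share was 17.6% with at least 2 marker reads, 18.07% in thinned cells, 29.91% in cells with at least 2000 genes and 16.67% in batch 1 alone.

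Counts of genes moved most: 293 higher and 245 lower in thinned cells, 2198 and 1934 in batch 1 alone, 1388 and 1106 in batch 2 alone, 306 and 192 with a pseudocount of 10, and 165 and 83 with a 25% detection filter, beside the 3 settings above. In 1 batch alone the rule did not ask for the same sign in the other batch, and a larger pseudocount shrinks every ratio. Fewer genes were considered under the stricter filter, and thinned cells had fewer reads. How much each of these moved the counts was not tested.

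Scaling by TMM moved the median ratio of all considered genes to -0.26. Of the named genes, 23 of 53 higher and 10 of 22 lower ones met the size rule under all 22 alternatives, and 10 and 6 lost it under 3 or more. Few cycling cells per plate (2 to 20) limit every plate value.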
